A study of Mus musculus with 12 samples.

Results

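The genes described here encode receptors that bind the constant part of immunoglobulin: Fcgr1, Fcgr2b, Fcgr3 and Fcgr4, which bind IgG, and Fcer1g, the signalling chain shared by the activating IgG receptors and by the IgE receptor. They were taken by name, as every probe set that the Mouse430_2 array annotation assigns to one of these symbols. That gave 5 genes of 18193 genes named by a probe set with 1 gene symbol, and 10 probe sets of 45037. The group was proposed with values of these same arrays in view, so the levels of the 5 genes are given as a description and no test is attached to them.

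The study compared 4 cell types of C57BL/10.RIII mice, labelled with surface markers and profiled on 3 arrays each, 12 in all. The strain background is the only genetic information in the labels, and no age, allele or tissue of origin is given. EncT is the group of encephalitogenic T cells, that is T cells able to cause brain inflammation, labelled CD4+. Treg is a regulatory T cell group labelled CD4+,TGFbeta+. The remaining groups carry the name of FoxA1, a forkhead transcription factor, and share the surface label CD4hi,PD-L1hi. They are nFoxA1Treg, neuron induced by title but natural by cell type, and iFoxA1Treg, whose cells were induced with IFN-beta. The FoxA1 groups share their surface label, so only their titles and cell type names tell them apart. The labels do not say how many animals or cultures the 3 arrays of a group came from.

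The iFoxA1Treg arrays were unlike the other 9. Their correlations with the other arrays ran from 0.683 to 0.739, against 0.815 to 0.847 between arrays of the 3 other groups. Xist, an RNA of the inactive X chromosome of females, averaged 11.07 for EncT, 11.47 for nFoxA1Treg, 11.52 for Treg and 2.11 for iFoxA1Treg. Eif2s3y, a gene of the Y chromosome, averaged 2.11, −1.62, 2.30 and 9.66 in the same order of groups. The part of sex in comparisons with the arrays labelled iFoxA1Treg was not tested. The level of Cd4, the co-receptor by which all groups were named, averaged 10.57 for EncT, 10.44 for nFoxA1Treg, 10.39 for Treg and 4.24 for iFoxA1Treg on the normalized log2 scale. The arrays labelled iFoxA1Treg therefore go against the label CD4hi at the RNA level. Cd274, which encodes PD-L1, averaged 7.63 for EncT, 7.34 for nFoxA1Treg, 7.31 for Treg and 10.01 for iFoxA1Treg. The mean of nFoxA1Treg, although labelled PD-L1hi, was thus below that of EncT at the RNA level. The arrays labelled iFoxA1Treg also carried markers of several other blood cell types, which are given beside the receptor values. For this reason they are called the arrays labelled iFoxA1Treg. The other exception was EncT replicate 1, which carried mast cell transcripts.

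Activating Fc receptors bind IgG in immune complexes and on coated cells, and signal through Fcer1g, whose ITAM motif is phosphorylated by Src family kinases and then recruits the kinase Syk. Fcgr2b binds the same complexes but carries an ITIM motif, which recruits the phosphatase encoded by Inpp5d and dampens the response. Macrophages and neutrophils carry activating and inhibitory receptors together, B cells carry Fcgr2b, NK cells carry Fcgr3, mast cells carry the IgE receptor, and T cells are generally regarded as having little of any of them.

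The start regions of the 5 genes are shown because 9 of the 10 receptor probe sets were higher on the same 3 arrays and because PU.1, the myeloid and B cell factor encoded by Spi1, is a well-known regulator of Fc receptor genes. The sequences are RefSeq's, build GRCm38.p6, from 120 bases before to 30 bases after the annotated start, written 5′ to 3′ on the strand of the gene. Capitals mark the letters TTCCTC, which read GAGGAA, the core of the PU.1 motif, on the other strand.
Fcgr1, chr3:96293940-96294089, minus strand: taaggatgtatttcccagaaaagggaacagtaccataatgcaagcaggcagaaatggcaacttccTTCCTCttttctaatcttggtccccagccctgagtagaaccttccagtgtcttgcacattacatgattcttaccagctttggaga
Fcgr3, chr1:171059374-171059523, minus strand: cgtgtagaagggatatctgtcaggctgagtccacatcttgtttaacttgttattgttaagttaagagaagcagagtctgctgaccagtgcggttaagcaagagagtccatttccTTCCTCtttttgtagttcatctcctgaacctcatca
Fcgr4, chr1:171018806-171018955, plus strand: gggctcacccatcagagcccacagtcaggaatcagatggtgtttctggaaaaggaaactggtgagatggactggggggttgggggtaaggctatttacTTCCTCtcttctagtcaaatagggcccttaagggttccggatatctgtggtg
Fcgr2b, chr1:170976042-170976191, minus strand: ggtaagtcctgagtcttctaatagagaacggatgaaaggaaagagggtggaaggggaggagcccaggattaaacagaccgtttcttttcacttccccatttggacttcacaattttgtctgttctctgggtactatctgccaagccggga
Fcer1g, chr1:171234320-171234469, minus strand: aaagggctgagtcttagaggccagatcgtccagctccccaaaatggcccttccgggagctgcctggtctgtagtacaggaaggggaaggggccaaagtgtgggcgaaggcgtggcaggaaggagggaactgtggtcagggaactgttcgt

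The search covered both strands of a longer window, 250 bases before to 50 after the start. GAGGAA stood in 3 of the 5 genes, the ligand-binding chains of the activating receptors Fcgr1, Fcgr3 and Fcgr4, and in 28.3% of the 32851 promoters searched (31.3% of 27025 genes). Its first base lay at −55 from the start in Fcgr1, −22 in Fcgr4, and −6 or −15 in Fcgr3, which has a pair of overlapping annotated starts. Fcgr1 and Fcgr3 shared the run ttccTTCCTCtttt of 14 letters around it. The letters TTCNNNGAA, the motif of the interferon-gamma activated site, stood only in Fcgr1 among the 5 genes, at −109, and in 8.3% of promoters. The core of the interferon-stimulated element, the letters GAAA repeated with 2 bases between, stood only in Fcgr4, at −73, and in 3.44% of promoters. The matches did not overlap one another, and a match of letters does not show that a factor binds there.

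Levels were read as normalized log2 values and are given in the order of replicates 1, 2 and 3, and errors are standard deviations over 3 arrays. The processed values have no offset, so dim probe sets run below 0 and their log2 values scatter widely. For these, differences are also given on the log2(value + 16) scale, which understates the change of low genes. A level of 4.05, the limit of the upper 60% of probe sets by mean, is used as the line between dim and brighter probe sets.

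Fcer1g, the common signalling chain, was high on the arrays labelled iFoxA1Treg and dim on most others. Its probe set 1418340_at stood at 10.79, 10.84 and 10.91 on the arrays labelled iFoxA1Treg. In EncT it stood at 5.40, 5.11 and 4.14, in Treg at 3.70, 3.13 and 3.78, and in nFoxA1Treg at 2.33, 3.48 and 1.18. The EncT arrays were all above the line of 4.05 and all above every nFoxA1Treg and Treg array, while nFoxA1Treg and Treg overlapped. On the log2(value + 16) scale nFoxA1Treg was lower than EncT by a difference of −1.08, or 2.12-fold, and Treg by −0.74, or 1.67-fold. The arrays labelled iFoxA1Treg lay 6.41 above nFoxA1Treg on that scale, or 85.0-fold.

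Fcgr3, a low-affinity activating receptor for immune complexes, followed the same order of EncT above the regulatory groups. Its probe set 1448620_at read 4.62, 4.63 and 3.96 in EncT. It read 1.99, 1.04 and 1.997 in nFoxA1Treg and 2.43, −0.31 and 1.27 in Treg. All EncT arrays were above all 6 arrays of these regulatory groups, which overlapped each other and were dim throughout. The differences from EncT on the log2(value + 16) scale were −0.95 in nFoxA1Treg and −0.99 in Treg. On the arrays labelled iFoxA1Treg the probe set read 9.67, 9.77 and 9.72, a difference of 5.47 from nFoxA1Treg on the log2(value + 16) scale, or 44.4-fold.

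Fcgr4, an activating receptor of monocytes, macrophages and neutrophils, was dim in every array of the 3 other groups. Its probe set 1425225_at gave 0.72, 2.98 and 3.38 in EncT, 1.69, 1.69 and 2.86 in nFoxA1Treg, and 0.40, 1.66 and −7.83 in Treg. None of these 9 values reached the line of 4.05, so their order says little: EncT overlapped both other groups, and nFoxA1Treg lay just above Treg. That last separation was absent in the values as deposited. The arrays labelled iFoxA1Treg gave 9.14, 9.25 and 9.18, which is 4.87 above nFoxA1Treg on the log2(value + 16) scale, or 29.2-fold.

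Fcgr1, the high-affinity IgG receptor, was measured by a pair of probe sets that disagreed. On 1417876_at the arrays labelled iFoxA1Treg reached 12.06, 12.21 and 12.14. The same probe set gave 4.46, 4.59 and 4.25 in EncT, 4.19, 4.23 and 4.49 in nFoxA1Treg, and 4.37, 4.35 and 4.04 in Treg. The 3 groups other than iFoxA1Treg overlapped one another, and the difference of the arrays labelled iFoxA1Treg from nFoxA1Treg was 6.98 on the log2(value + 16) scale, or 126-fold. On 1436625_at the same arrays gave only 7.10, 6.72 and 7.13. The other groups gave 6.70, 6.64 and 6.48 in EncT, 6.55, 6.46 and 6.65 in nFoxA1Treg, and 6.40, 6.67 and 6.59 in Treg. The difference between iFoxA1Treg and nFoxA1Treg was 0.43 on this probe set and 7.83 on the other, both on the normalized log2 scale. In the values as deposited the difference on 1436625_at was 0.23 and the groups overlapped. Because 1436625_at had the higher mean over the 12 arrays, it is the one that represents Fcgr1 wherever 1 probe set stands for a gene.

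Fcgr2b, the inhibitory receptor, had 5 probe sets, of which 4 separated the arrays labelled iFoxA1Treg from all others. The brightest, 1435476_a_at, gave 10.06, 10.30 and 10.30 on the arrays labelled iFoxA1Treg, 6.03, 5.90 and 5.49 in EncT, 5.40, 5.25 and 5.39 in nFoxA1Treg, and 5.93, 5.60 and 5.19 in Treg. EncT lay above nFoxA1Treg without overlap, with a difference of −0.46 in nFoxA1Treg, and overlapped Treg. The arrays labelled iFoxA1Treg were 4.87 above nFoxA1Treg on the normalized scale.

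On 3 further Fcgr2b probe sets EncT was above both nFoxA1Treg and Treg. The probe set 1435477_s_at gave 5.20, 5.06 and 5.13 in EncT, 4.11, 3.19 and 3.24 in Treg, and −6.46, −7.84 and 2.39 in nFoxA1Treg. The probe set 1451941_a_at gave 4.92, 4.72 and 4.52 in EncT, 3.08, 2.998 and 2.62 in Treg, and −7.39, 1.09 and 2.20 in nFoxA1Treg. In both, the order was EncT, then Treg, then nFoxA1Treg with no overlap between neighbours, although all nFoxA1Treg values were near the floor. The probe set 1455332_x_at gave 4.68, 4.26 and 4.48 in EncT, with nFoxA1Treg at 1.91, −0.67 and 0.78 overlapping Treg at 2.93, 1.55 and −0.03. On the log2(value + 16) scale these probe sets were lower in nFoxA1Treg than in EncT by differences of −1.54, −1.22 and −1.09, and lower in Treg by −0.88, −0.85 and −0.96. On the arrays labelled iFoxA1Treg they stood at 11.17, 11.11 and 11.17, at 10.46, 10.54 and 10.53, and at 10.38, 10.33 and 10.40. The fifth, 1447622_at, had a mean of −0.025 over the 12 arrays and overlapped in every pair of groups. By Affymetrix naming, the endings _a, _s and _x mark probe sets that match several transcripts of a gene, several genes or less specific sequence, and Fcgr2b and Fcgr3 are close in the part that binds IgG. How far signal of one reached a probe set of the other was not tested.

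**Figure D1:**
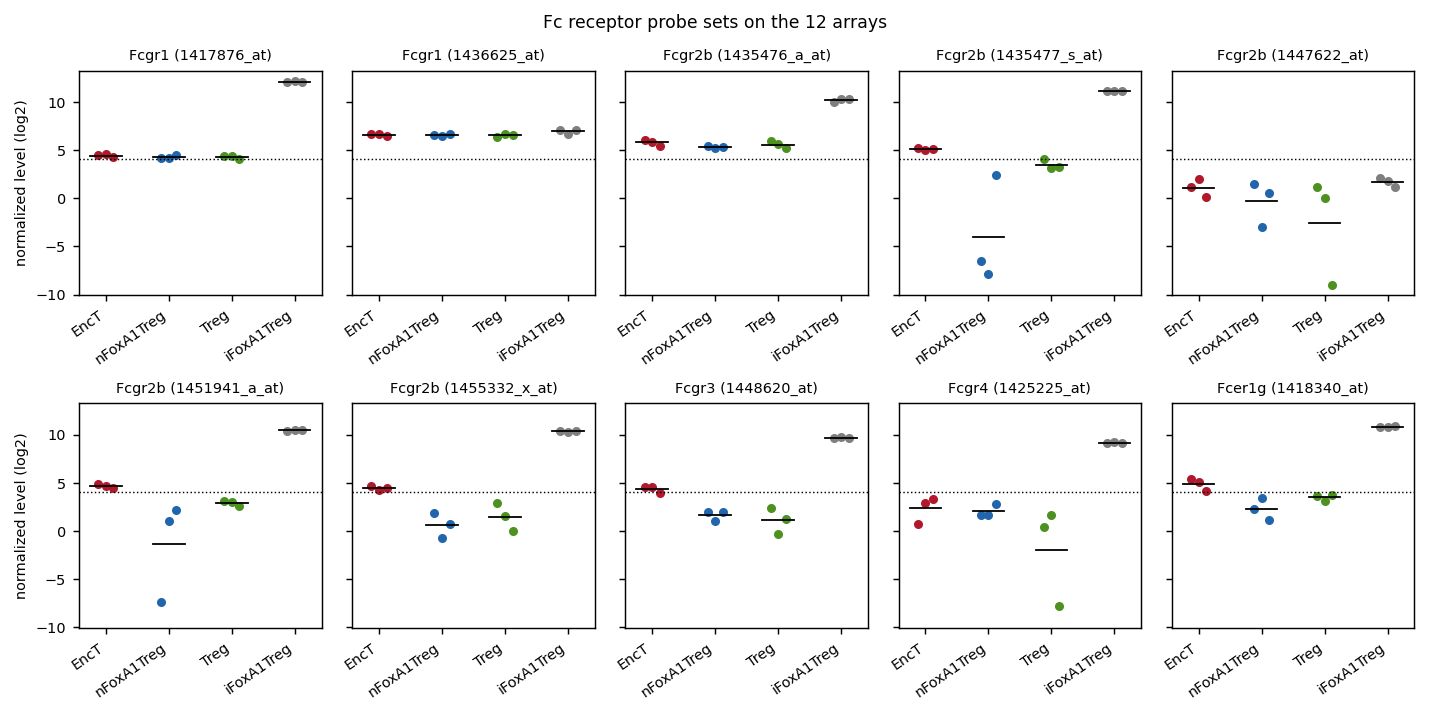
Normalized log2 level (vertical axis) of the 10 Fc receptor probe sets on the 12 arrays, 1 panel a probe set, with points for single arrays grouped by cell type, the bar at the group mean and a dotted line at the level of 4.05. The arrays labelled iFoxA1Treg lie above all others on every probe set except Fcgr2b 1447622_at, while the gap on Fcgr1 1436625_at is 0.43.

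Counted over genes, with the brightest probe set standing for each, all 5 receptors were higher on the arrays labelled iFoxA1Treg than in nFoxA1Treg without overlap. Over all 18193 genes, 66.2% did not overlap in this comparison, and 33.2% were higher. Counted over probe sets, 9 of 10 were higher than in each of the 3 other groups, against 29.3% of 34945 probe sets against EncT, 30.5% against nFoxA1Treg and 30.6% against Treg. The members were proposed with these values known, so nothing is read from these shares.

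In nFoxA1Treg against EncT, 3 of 5 genes were lower without overlap, namely Fcgr2b, Fcgr3 and Fcer1g, and none was higher. The background was 27.1% without overlap and 14.3% lower. Counted over probe sets, 6 of 10 were lower, against 12.9%. In Treg against EncT, Fcgr3 and Fcer1g were lower, 2 of 5, with a background of 26.8% without overlap and 15.2% lower, and over probe sets 5 of 10 were lower, against 13.7%. These comparisons share the 3 EncT arrays, so they are not independent of each other. In nFoxA1Treg against Treg, only Fcgr4 was without overlap, 1 of 5 with a background of 11% without overlap and 6.28% higher, and at the dim levels given above. Over probe sets the count was 1 higher, that of Fcgr4, and 2 lower, 1435477_s_at and 1451941_a_at of Fcgr2b, of 10, against 6.24% higher and 4.61% lower over all probe sets. On the log2(value + 16) scale the median difference of the 5 genes from EncT was −0.35 for nFoxA1Treg and −0.36 for Treg, beside −1e-04 and −0.0015 over all 18193 genes. It was −0.001 between nFoxA1Treg and Treg, where all genes gave 0.005, and 4.87 between iFoxA1Treg and nFoxA1Treg, where all genes gave 0.012. Without the offset these medians of the 5 genes were −0.46, −1.35, −8e-04 and 7.11, of which the second and the last rest on values near the floor.

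The filter that keeps the upper 60% of probe sets passed 7 of the 10 receptor probe sets. Without the arrays labelled iFoxA1Treg only 3 would have passed, both of Fcgr1 and 1435476_a_at of Fcgr2b. Over the 9 arrays of the 3 other groups, the means of Fcgr3, Fcgr4 and Fcer1g were 2.40, 0.84 and 3.58, below the line. In EncT alone the means of Fcgr3 and Fcer1g, 4.40 and 4.885, were above it. In RNA from many cells, a lower level from fewer cells of a type and one from less RNA per cell cannot be told apart.

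Markers of other cell types moved with the receptors, and their part in the result was not tested. The values of each marker list, taken off the log scale, were summed over its annotated genes. For macrophage markers (11 of 12 annotated) the sum was 17919 to 18220 on the arrays labelled iFoxA1Treg, against 1816 to 2942 in EncT, 1222 to 2238 in nFoxA1Treg and 1899 to 2251 in Treg. All 11 had means above the line of 4.05 on the arrays labelled iFoxA1Treg, including Adgre1, Lyz2, Mertk, Itgam and the complement genes C1qa, C1qb and C1qc, of which the last 5 had means below it in every other group. Lyz2, lysozyme of macrophages and neutrophils, had group means of 12.36 there, 5.18 in EncT, 1.25 in nFoxA1Treg and 2.59 in Treg. As for Fcer1g and Fcgr3, the EncT mean was above those of both regulatory groups other than iFoxA1Treg. The macrophage receptor gene Csf1r had means of 6.92, 5.44, 5.07 and 5.23 in the same order of groups.

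B cell markers (7 of 8 annotated) summed to 28196 to 30821 on the arrays labelled iFoxA1Treg and to 311 to 401 in EncT, 160 to 209 in nFoxA1Treg and 215 to 239 in Treg. Cd79a and Cd79b, the signalling chains of the B cell receptor, had means below the line in all 3 of these groups. In each of them 4 of the 7 had means above it: Ebf1, Ighm and Cd22 throughout, with Ms4a1 in EncT and Pax5 in the others. Ighm read 8.05, 7.51 and 6.83 in EncT, above its 5.44 to 6.05 in nFoxA1Treg and 6.19 to 6.64 in Treg. The means of Ms4a1 were 4.70, 2.92 and 3.92. Neutrophil markers (9 of 10) summed to 32635 to 32785 on the arrays labelled iFoxA1Treg and to 32.2 to 57.1 elsewhere, where 8 of the 9 had group means below the line. In EncT the neutrophil sums were 32.6 to 53.5, within the range of the nFoxA1Treg and Treg arrays. With 8 of the 9 genes below the line, these sums come from signal near the floor, and the part of neutrophils was not tested. T cell markers (9 of 12) went the other way, from 16356 to 18432 in the 3 T cell groups to 3785 to 3988 on the arrays labelled iFoxA1Treg, and Cd3e from means of 10.73, 10.58 and 10.63 to 7.83.

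NK cell markers (7 of 8) summed to 3201 to 3435 on the arrays labelled iFoxA1Treg and to 1118 to 4525 in EncT, 3629 to 3841 in nFoxA1Treg and 4053 to 4316 in Treg. The genes Ncr1, Eomes, Klra8 and Klre1, which define NK cells more closely, had means below the line in all 3 T cell groups. On the arrays labelled iFoxA1Treg all 7 annotated genes had means above it. Of the list only Gzma was lower there, at 8.63 to 8.72 against 9.97 to 12.12 in the T cell groups. Dendritic cell markers (6 of 7) summed to 131 to 150 on the arrays labelled iFoxA1Treg and to 296 to 454 elsewhere. Batf3 of this list read 3.65 to 4.01 on those arrays and 7.79 to 8.62 elsewhere. Flt3 and Siglech went the other way, with at least 4.58 and 4.49 on those arrays and at most 4.19 and 2.50 elsewhere. Mast cell and basophil markers (10 of 10) summed to 1060 to 1561 on the arrays labelled iFoxA1Treg, 170 to 197 in nFoxA1Treg and 157 to 223 in Treg.

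**Figure D2:**
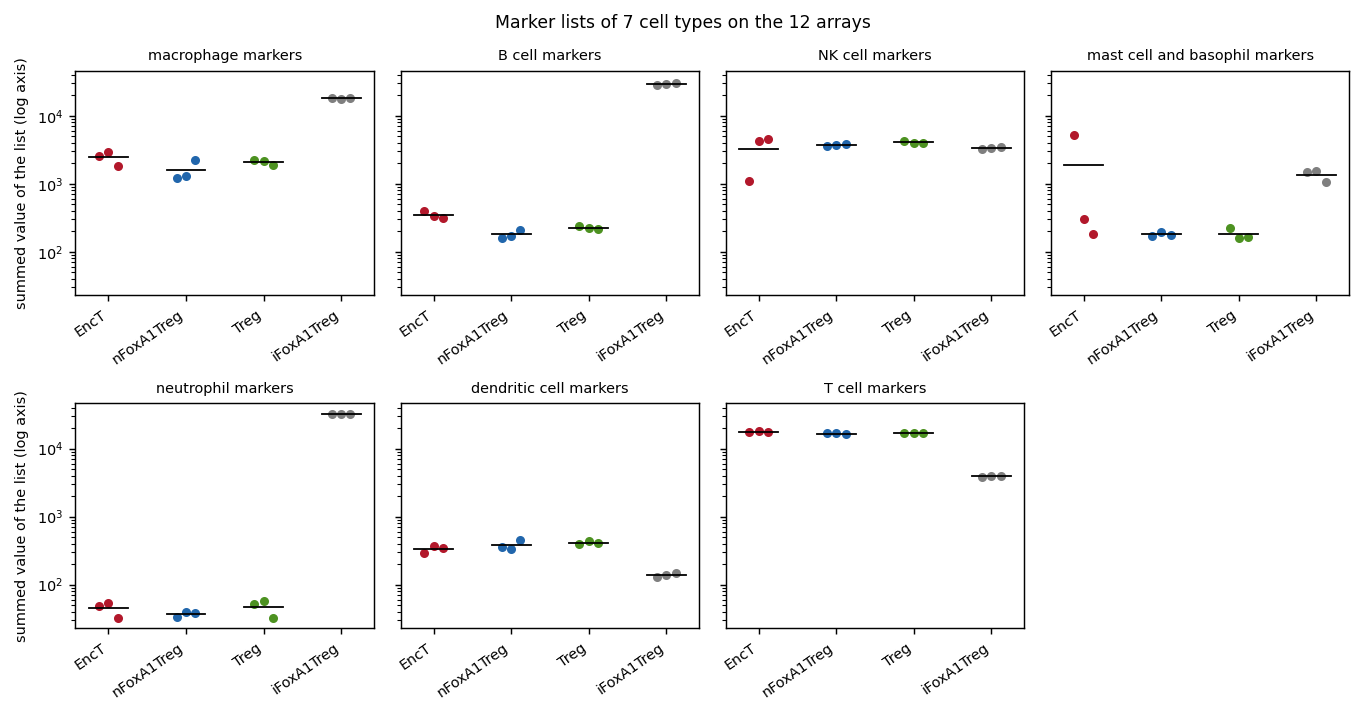
Summed value of each of 7 marker lists (vertical log axis) on the 12 arrays, with points for single arrays by group. Macrophage, B cell and neutrophil lists are high and the T cell list is low on the arrays labelled iFoxA1Treg, and EncT replicate 1 has a mast cell sum of 5205.

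EncT replicate 1 stood apart in the mast cell list, with a sum of 5205 against 305 and 181 in replicates 2 and 3. The mast cell tryptase gene Tpsb2 read 11.87 there and 5.07 and 4.58 in the other EncT arrays. The carboxypeptidase gene Cpa3 read 9.44, 6.28 and 5.28, and the chymase gene Cma1 read 8.61, 5.26 and 2.70. Tpsb2 was the brightest of the list in replicate 1, so it weighs most in that sum. Not all of the list was high there. Mcpt4, Hdc and Gata2, at 3.47, 1.13 and 5.92, were lower in replicate 1 than in both other EncT arrays. Mcpt8 read 2.67 in replicate 1, below the line of 4.05. Fcer1g is a chain of the IgE receptor as well, so the other chains of that receptor are given beside it. Fcer1a, the IgE-binding chain, read 7.84, 4.97 and 2.23 in EncT, 2.99 to 3.44 in nFoxA1Treg, 2.21 to 4.04 in Treg, and 6.92, 7.06 and 6.80 on the arrays labelled iFoxA1Treg. Ms4a2, the beta chain, read 4.55, 2.32 and 2.47 in EncT and 6.19, 6.49 and 6.12 on the arrays labelled iFoxA1Treg. Fcer1a and Ms4a2 were thus highest among the T cell arrays in EncT replicate 1. Fcer1g in that array, at 5.40, was close to the 5.11 of EncT replicate 2, and without replicate 1 the EncT values of Fcer1g still lay above all nFoxA1Treg and Treg values. EncT replicate 2 was itself above all nFoxA1Treg and Treg values for Fcer1a, Tpsb2, Cpa3 and Cma1, but not for Ms4a2 or Kit. Over EncT replicates 1 to 3, Fcer1g fell in the same order as Fcer1a, Tpsb2, Cpa3 and Cma1. The part of mast cells in these values was not tested. Leaving EncT replicate 1 out added Fcgr4 to the genes lower without overlap, giving 4 of 5 for nFoxA1Treg and 3 of 5 for Treg.

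**Figure D3:**
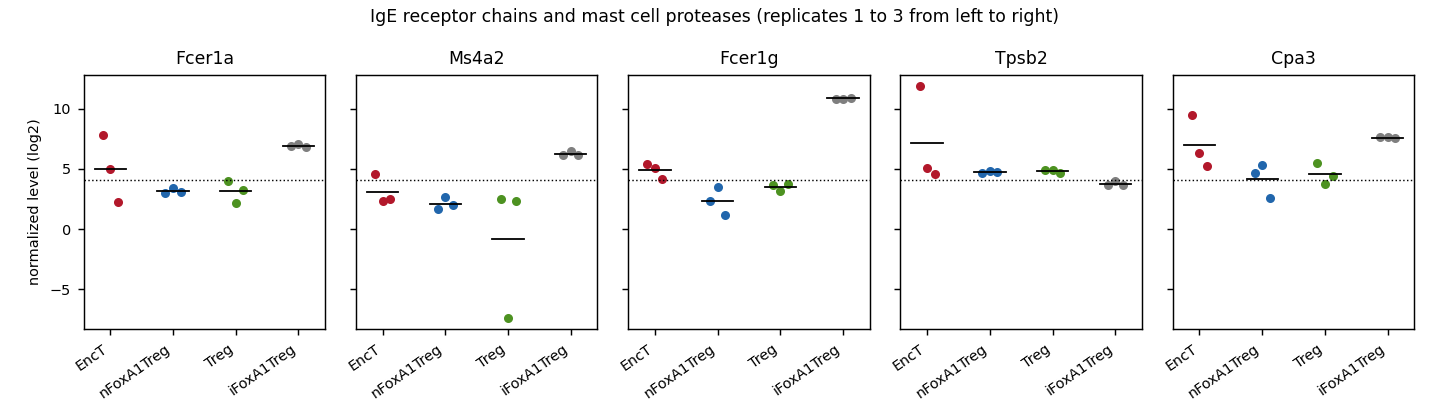
Normalized log2 level (vertical axis) of the IgE receptor chains Fcer1a, Ms4a2 and Fcer1g and the mast cell proteases Tpsb2 and Cpa3 on the 12 arrays by group, replicates 1 to 3 from left to right, with a dotted line at 4.05. Tpsb2 reads 11.87 in EncT replicate 1 and 4.58 to 5.07 on the other EncT arrays, while Fcer1g reads 5.40 and 5.11 in EncT replicates 1 and 2.

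The profiles of the receptors over the 12 arrays were compared with one another by the root mean square difference of log2(value + 16) profiles, each centred on its own mean. A value of 0 would mean identical profiles, and all of these numbers rest mainly on the gap between the 3 arrays labelled iFoxA1Treg and the other 9. Among the receptors, 1451941_a_at of Fcgr2b was 0.23 from Fcer1g, and Fcgr3 was 0.40 from both Fcgr4 and Fcer1g. The pair of Fcgr1 probe sets differed by 2.86, whereas 1436625_at of Fcgr1 was 0.17 from the dim 1447622_at of Fcgr2b. These small distances join a pair of nearly flat profiles.

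Among all genes past the filter, members left out, the profiles closest to each receptor were as follows. For Fcer1g they were Ighm, the IgM heavy chain, at 0.34, the phagocyte oxidase gene Cybb at 0.35, Alox5ap at 0.36, Klf2 at 0.37 and Ms4a4c at 0.38. For Fcgr3 they were Ncf1, another oxidase subunit, at 0.23, Tgfbi at 0.25, Snn at 0.28, Gpnmb at 0.31 and Clec2d at 0.32. For Fcgr4 they were Sh3bp5 at 0.13, the adaptor Dok3 at 0.17, Emilin2 at 0.17, Themis2 at 0.19 and Ly6i at 0.22. For Fcgr2b they were Nsg2 and Rgs18 at 0.16, the inhibitory receptor Pirb at 0.18, and the immunoglobulin receptor family gene Fcrl1 and the factor Tcf4 at 0.19. For the flat Fcgr1 probe set 1436625_at they were Doc2g at 0.057, Ptgds at 0.072, Zfp410 at 0.077, Ldb3 at 0.081 and Cenpj at 0.0835. For the steep Fcgr1 probe set 1417876_at, examined after its values were seen, they were the B cell receptor Cd22 at 0.11, the interferon-induced genes Oasl1 at 0.12 and Ifit3 at 0.13, and Acod1 and Syk at 0.14.

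Fcgr2b, Fcgr4, Fcgr3 and Fcer1g lie on mouse chromosome 1 within a run of 17 genes in RefSeq order, from Fcrlb to B4galt3, and Fcgr1 lies on chromosome 3. Among the genes between them, the succinate dehydrogenase gene Sdhc was lower on the arrays labelled iFoxA1Treg than in nFoxA1Treg by a difference of −1.54 ± 0.075 (log2, SE; limma adjusted p = 5.21e-10). The gene of a mitochondrial import protein, Tomm40l, fell by 0.74 (limma adjusted p = 5.88e-06), and Apoa2 fell by 0.42 (adjusted p = 0.0196). Cfap126, next to Fcgr3, rose by 0.66 (limma adjusted p = 0.0205), and B4galt3, which lies beyond Fcer1g, rose by 0.46 (adjusted p = 1.67e-04). Of the called genes between the receptors, Cfap126 was higher and Sdhc, Tomm40l and Apoa2 were lower. Over all 12609 genes, 74.4% were called in this comparison. Fcrla, which lies beside Fcgr2b and is a B cell relative of the Fc receptors, averaged 2.26 for EncT, 0.65 for nFoxA1Treg, 2.87 for Treg and 9.61 on the arrays labelled iFoxA1Treg. It was below the filter and not tested. Next to Fcgr1, the histone gene H2bc18 had a difference of −0.37 that did not pass the test (limma adjusted p = 0.0799). Txnip, on the other side of Fcgr1, was called lower with −0.24 (limma adjusted p = 0.00742).

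**Figure D4:**
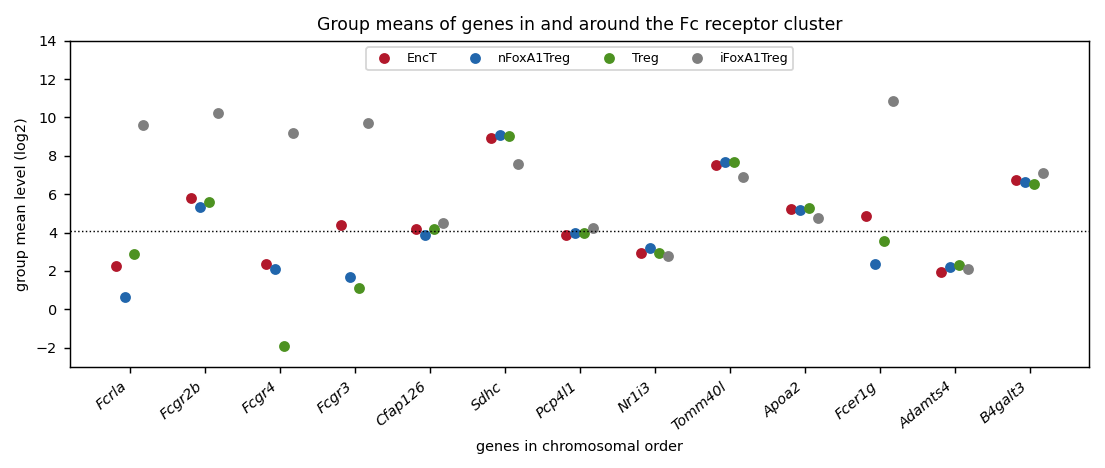
Group mean level (vertical axis, normalized log2) of the genes in and around the Fc receptor cluster, in chromosomal order along the horizontal axis, with 1 point per group and gene. Fcrla and the Fc receptor genes are far higher on the arrays labelled iFoxA1Treg, while Sdhc is lower there by a difference of −1.54.

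The wider pathway was read from 9 gene lists with 98 genes, of which 85 had a probe set under their symbol and 72 passed the filter and were tested, 12 of them only through the arrays labelled iFoxA1Treg. In nFoxA1Treg against EncT, 21 of the 72 fell and none rose. That is 29.2%, with a background of 19.6% of 12609 genes called by limma and 11.2% lower, and a list median of −0.15 against −0.0045 over all genes. Among other immunoglobulin receptors 2 of 6 fell, including Trim21, a cytosolic antibody receptor, with a difference of −0.45 ± 0.072 (log2, SE; limma adjusted p = 0.00128). Of the receptors that pair with Fcer1g, 1 of 2 fell: Clec4n, a C-type lectin of myeloid cells, with −1.15 on the log2(value + 16) scale (limma adjusted p = 0.00814 on the normalized scale). Clec4n was among the 12 genes tested only because the arrays labelled iFoxA1Treg raised its mean.

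Of 21 downstream activating effectors 8 fell, among them Sos1, an exchange factor of the Ras pathway, with a difference of −0.55 (limma adjusted p = 0.00156) and Plcg1, the phospholipase C of T cells, with −0.28 (adjusted p = 0.00406). Plcg2, its counterpart in B and myeloid cells, gave 0.18 and did not pass (limma adjusted p = 0.546). Of 6 ITAM adaptors 2 fell and of 6 Src and Syk family kinases 1 fell, while Syk, the kinase that binds the Fcer1g ITAM, gave 0.44 and did not pass (limma adjusted p = 0.0518). Syk was dim in both groups, with means of 3.39 in nFoxA1Treg and 2.95 in EncT, and gave 0.16 on the log2(value + 16) scale. It was called higher without EncT replicate 2, at 0.50 (limma adjusted p = 0.0375), and with array weights, at 0.30 (0.0395). Among 10 inhibitory phosphatases and adaptors 1 fell, Ptpn6, the phosphatase SHP-1, with a difference of −0.52 (limma adjusted p = 0.00128), whereas Inpp5d, the phosphatase recruited by Fcgr2b, gave 3e-04 (adjusted p = 0.999). Of 12 other ITIM receptors 2 fell.

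In the phagocyte oxidase list 2 of 4 fell. Ncf1 fell by 1.38 on the normalized scale (limma adjusted p = 0.00191), and Cybb, the catalytic subunit, fell by 1.35 on the log2(value + 16) scale (limma adjusted p = 0.0205 on the normalized scale). Cybb was likewise tested only through the arrays labelled iFoxA1Treg, and its call was lost without EncT replicate 1 (limma adjusted p = 0.0520) and with only these groups in the fit (0.0834). Of 5 transcription factors of Fc receptor genes 2 fell: Irf1 with a difference of −0.59 (limma adjusted p = 0.000547) and Spi1, which encodes PU.1, with −0.58 (adjusted p = 0.0239). The call of Spi1 was lost without EncT replicate 2 (limma adjusted p = 0.0624), without nFoxA1Treg replicate 2 (0.0967), without the arrays labelled iFoxA1Treg (0.0505) and with only these groups in the fit (0.0963). The count of 21 was 13 without nFoxA1Treg replicate 1 and 13 without replicate 2, and 9 of 60 tested without the arrays labelled iFoxA1Treg. The last is 15%, below the 18.2% of 12496 genes called in that fit, so the share of the lists above the background did not hold in it. In the fit to all 12 arrays, the 60 list genes that pass the filter without those arrays gave 28.3%, against 19.9% of 12267 genes. The count of 21 was 9 with only nFoxA1Treg and EncT in the fit and 32 with array weights.

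In Treg against EncT, which shares the EncT arrays, 14 of the 72 fell and 1 rose, 20.8% with a background of 16.5%, and 10.3% lower over all genes. Over all genes 785 were higher and 1299 lower, a split of 535 to 1417 in the values as deposited and 429 to 1293 with arrays centred on medians. The median of the lists was −0.12. Trim21 fell by 0.42 (limma adjusted p = 0.00261), Clec4n fell by 1.14 on the log2(value + 16) scale (adjusted p = 0.00567 on the normalized scale), Ptpn6 fell by 0.45 (adjusted p = 0.00376) and Irf1 fell by 0.62 (adjusted p = 0.000607). Spi1 fell by 0.73 (limma adjusted p = 0.00953) and kept its call without any single array of the groups compared. Cd300lf, a myeloid ITIM receptor, was the gene that rose, by 0.92 (limma adjusted p = 0.0226), a call lost without EncT replicate 2 (0.0530), EncT replicate 3 (0.0552), Treg replicate 2 (0.0585) or Treg replicate 3 (0.0935). Syk gave 0.17 (limma adjusted p = 0.475), Plcg2 −0.0047 (0.991) and Inpp5d 0.17 (0.165), none past the test. Plcg2 passed without EncT replicate 1, at −0.30 (limma adjusted p = 0.0164), and Inpp5d passed without EncT replicate 2, at 0.25 (0.0239), and with array weights, at 0.24 (0.00512). The count of 15 called was 8 without Treg replicate 2, 9 without replicate 3 and 30 with array weights. Without the arrays labelled iFoxA1Treg it was 11 of 60, or 18.3%, against 14.3% of 12496 genes.

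In nFoxA1Treg against Treg no gene of the lists was called by limma, and 1 of 12609 genes was, 0.00793%. At an unadjusted p under 0.05 there were 5 of 72, or 6.94%, against 3.71% of all genes. The differences were 0.26 for Syk, 0.18 for Plcg2, 0.15 for Spi1, −0.070 for Ptpn6 and −0.17 for Inpp5d, each with a limma adjusted p of 0.9997.

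On the arrays labelled iFoxA1Treg against nFoxA1Treg, 45 of the 72 rose and 20 fell, 90.3% with a background of 74.4% of all genes, 35.2% higher and 39.2% lower. The 12 genes that passed the filter only through these arrays had to be higher there: Fcer1a, Fcer2a, Fcgrt, Cd79b, Clec4n, Syk, Blk, Blnk, Pirb, Lair1, Cybb and Cebpa. Of the other 60, 33 rose and 20 fell, 88.3% with a background of 74.1% of 12267 genes chosen in the same way. The list median was 1.43 against −0.023 over all genes. All 6 other immunoglobulin receptors were higher, 3 of them among those 12. Among the rest were Fcmr, the IgM receptor of B cells, which rose by 6.83 ± 0.28 (log2, SE; limma adjusted p = 9.11e-11), and Fcrl1, which rose by 5.31 (adjusted p = 6.92e-13). Of 6 ITAM adaptors 5 fell, including the T cell receptor chain Cd3e with a difference of −2.76, and 1 was higher, the B cell receptor chain Cd79b, one of the 12. Syk, one of the 12, had a mean of 11.79 against 3.39 in nFoxA1Treg, a gap of 7.07 on the log2(value + 16) scale, while Zap70, the Syk family kinase of T cells, fell by 2.68 (adjusted p = 1.46e-13). Plcg2 rose by 2.90 and Plcg1 fell by 1.70.

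Of 10 inhibitory phosphatases and adaptors 5 rose and 2 fell: Ptpn6 rose by 1.72, whereas Inpp5d fell by 0.30 (limma adjusted p = 0.00347). Of 12 other ITIM receptors 8 rose, Cd22 by 7.44 and Cd72 by 6.15, both of B cells, and 2 fell, Cd5 with −2.88 and Pdcd1 with −3.81, both of T cells. In the oxidase list 3 of 4 were higher, Ncf1 by 6.47 and Cybb, one of the 12, by 7.03 on the log2(value + 16) scale, and Ncf4 fell by 0.29. All 5 transcription factors were higher: Spi1 from 4.11 to 7.16 (limma adjusted p = 1.18e-09), Irf8 by 4.27, Cebpb by 3.08, Irf1 by 1.80 and Cebpa, one of the 12, by 2.40. Tyrobp, an ITAM adaptor of myeloid and NK cells, was below the filter and not tested, and read 11.29, 11.37 and 11.46 on the arrays labelled iFoxA1Treg, 5.49, 4.87 and 2.53 in EncT, −8.30, 2.46 and −7.88 in nFoxA1Treg and 0.82, −0.58 and 1.35 in Treg. These values moved with the macrophage, B cell, neutrophil and T cell marker sums given above, and the part of those cells was not tested. Lyn was not analysed here.

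**Figure D5:**
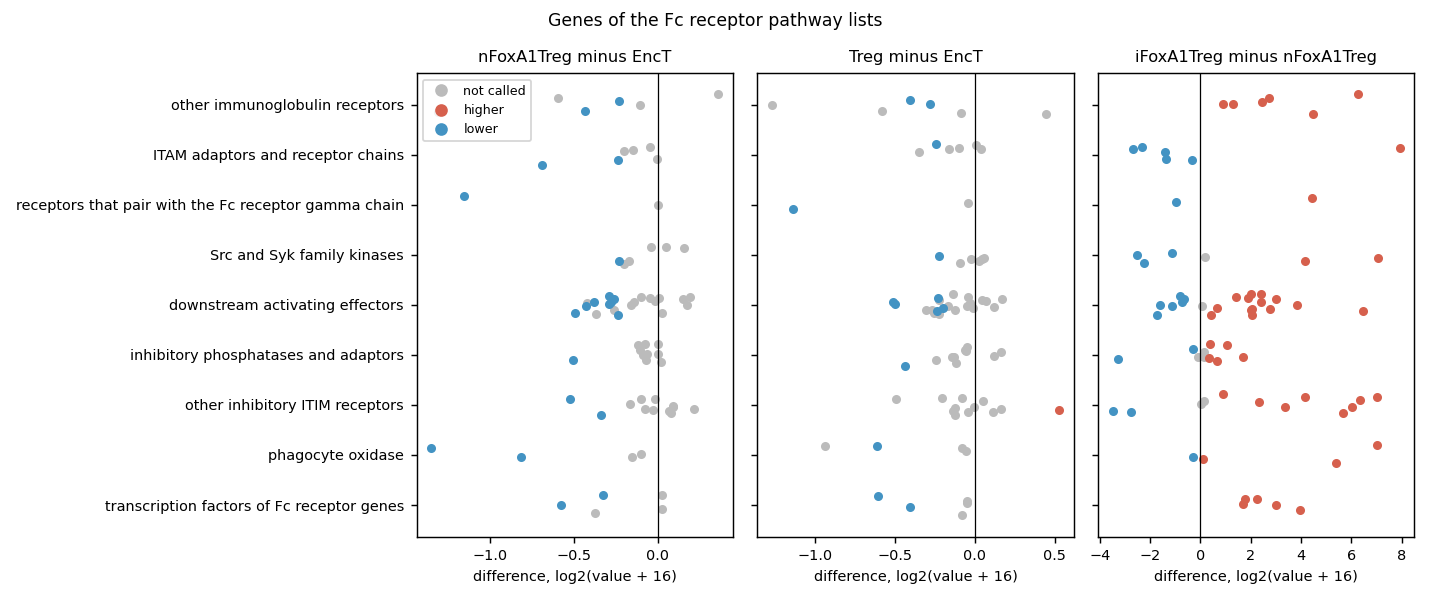
Difference of each tested pathway gene on the log2(value + 16) scale (horizontal axis) by gene list (vertical axis), 1 panel a comparison and 1 point a gene, with colour for genes called higher or lower by limma and grey for genes not called. For nFoxA1Treg against EncT 21 genes are lower, and for Treg against EncT 14 are lower and 1 is higher. For the arrays labelled iFoxA1Treg against nFoxA1Treg 65 of 72 are coloured. The comparison of nFoxA1Treg with Treg is not drawn.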

How the data were processed

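Gene expression was measured on 12 Affymetrix Mouse430_2 arrays, 3 in each of 4 groups, which were taken from the sample labels. The deposited table holds log2 values of 45037 probe sets, and the submitters' processing notes list PLIER, which combines the probes of each probe set into 1 value. Its version, and whether arrays were normalized together, is not given in the sources used here. That the log is to base 2 was inferred from the range of the values. No label ties the replicates to separate animals or cultures. The p-values therefore cover the spread between these samples alone, and that spread may be technical.

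Values were quantile normalized, since array medians spanned 0.202. Probe sets in the upper 60% by mean over 12 arrays were kept (level 4.05), and the brightest with 1 gene symbol stood for each gene, leaving 12609 genes. Of all probe sets 34945 had 1 symbol, 932 several and 9160 none. limma 3.58.1 in R 4.3.3 was fitted with 1 mean per group (8 residual degrees of freedom), an intensity trend and Benjamini-Hochberg adjustment over all genes of a comparison, two-sided at an adjusted p of 0.05. The code was tested on simulated data. Low values were also read as log2(value + 16). Overlap compares 3 with 3 arrays, with no test. Of 98 pathway genes, 13 were not analysed here. Figures were drawn with matplotlib 3.10.9.

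The members and lists were chosen with earlier results of these data known. Named pathway genes were, per list and comparison, up to 2 called genes in each direction with the smallest adjusted p, and Syk, Lyn, Inpp5d, Ptpn6, Tyrobp, Plcg2 and Spi1 throughout, of which the text gives a part. An item of this rule is not reported here. The 5 closest profiles were named for each receptor. Names and gene order came from the array annotation and RefSeq. Alternatives covered normalization, offset, filter, probe set choice, the groups in the fit, array weights, a replicate block and leaving out each array.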

Additional observations from a re-analysis of the deposited data

How the results depend on the processing

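The direction and overlap of the receptor genes on the arrays labelled iFoxA1Treg against nFoxA1Treg held in all alternatives run except the values as deposited, where Fcgr1 overlapped and 4 of 5 remained. In nFoxA1Treg against Treg the count of receptors without overlap was 0 as deposited, 0 with arrays centred on medians and 2 with the most variable probe set, against 1. In the values as deposited, the medians of the iFoxA1Treg arrays were 4.64 to 4.70 and those of the others 4.76 to 4.84. Counts of called genes moved more. With only the groups compared in the fit, 1229 genes were called in nFoxA1Treg against EncT and 1140 in Treg against EncT, and 9 pathway genes in nFoxA1Treg against EncT. With array weights these were 4721 and 4196 genes, 10 in nFoxA1Treg against Treg, and 32 (4 higher, 28 lower) and 30 (6 higher, 24 lower) pathway genes. Without the arrays labelled iFoxA1Treg, an alternative chosen after seeing the data, 9 of 60 pathway genes were called in nFoxA1Treg against EncT. In nFoxA1Treg against Treg, log2(value + 16) gave 3 called genes, no filter 4, the most variable probe set 2 and the replicate block 2. Over all groups, deviations of same-numbered arrays correlated at −0.163 to 0.167 and those of different numbers at −0.128 to 0.180, so the numbers were not taken to pair the samples. Between EncT and Treg the same-numbered correlations were 0.167, 0.130 and 0.0902 and all 6 others were below 0, a hint of pairing from the data and not from the labels. The replicate block gave 2343, 1880 and 9300 called genes in nFoxA1Treg against EncT, Treg against EncT and iFoxA1Treg against nFoxA1Treg, and 17, 13 and 65 pathway genes.

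Leaving out single arrays gave 1517 to 3010 genes in nFoxA1Treg against EncT, 1013 to 2716 in Treg against EncT and 0 to 12 in nFoxA1Treg against Treg, with 13 to 24, 8 to 17 and 0 pathway genes, and 3 to 4, 2 to 3 and 1 to 2 receptors without overlap. The lowest gene counts were without nFoxA1Treg replicate 2 and without Treg replicate 2 (1517 and 1013), followed by nFoxA1Treg replicate 1 (1524) and Treg replicate 3 (1068). Inpp5d in nFoxA1Treg against EncT turned to −0.032 without EncT replicate 1, −0.050 without EncT replicate 3 and −0.068 without nFoxA1Treg replicate 3, and was highest, at 0.082, without EncT replicate 2. Plcg2 in the same comparison turned to −0.098 with array weights and −0.11 without EncT replicate 1, and was highest, at 0.35, without EncT replicate 3. In Treg against EncT Plcg2 turned to 0.11 without EncT replicate 2, 0.17 without EncT replicate 3, 0.0083 without Treg replicate 1 and 0.015 without Treg replicate 2, and was lowest, at −0.30, without EncT replicate 1, while Pik3cd turned from −0.24 to 0.015 with the most variable probe set. The cause of these changes was not tested. Among the other values of named pathway genes, 956 kept direction and call, 64 lost the call and 5 gained it. With 3 arrays a group and low values of Fcgr3, Fcgr4 and Fcer1g in the T cell groups, differences among those groups rest on signal near the floor.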
